A study of Bos grunniens with 12 samples.

Results

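Germ cell regulators of mRNA storage and translation were examined in yak testes of 2 ages. The genes were chosen by symbol and were DAZL, BOLL, DDX4, DDX25, YBX2, CPEB1, CPEB2 and MSI1. Of these 8 symbols, 5 had a row in the table of gene expression, BOLL, DDX25, YBX2, CPEB2 and MSI1. No row carried the symbol DAZL, DDX4 or CPEB1, and these genes were not analysed here. CPEB2 stood on 3 gene identifiers and MSI1 on 2, so the 5 symbols gave 8 of the 20953 rows. A filter of a mean FPKM (sequenced fragments divided by transcript length and by library size) of at least 0.5 kept 6 of the 8 rows, and 12437 rows in all.

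Testis tissue of 6 healthy yaks was sequenced, 3 titled 18M (1.5 years) and 3 titled 5Y (5 years), each animal giving a library enriched for m6A-bearing mRNA and an input library made without the enrichment, 12 libraries in all. Expression was measured in the 6 input libraries, 1 per animal. The 18M testes were obtained by castration and the 5Y testes after slaughter, so age and the way of collection cannot be told apart. The titles and the stated ages place the 18M animals before and the 5Y animals after sexual maturity, while a separate field of the labels, on the stage of development, has the stages the other way round. Groups are therefore called 18M and 5Y throughout, as titled, and every difference is 5Y minus 18M.

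In male germ cells, transcription stops while the spermatid condenses its nucleus, and many mRNAs made earlier are kept as repressed ribonucleoprotein particles until their protein is needed. The DAZ family, to which DAZL and BOLL belong, binds the 3′ UTR of germ cell mRNAs and promotes their translation. YBX2 is a germ cell Y-box protein that coats and represses stored mRNA, and DDX25 is a testis RNA helicase that exports mRNAs to the chromatoid body and takes part in their translation. CPEB proteins bind a U-rich element in the 3′ UTR and control the poly(A) tail and translation, and Musashi proteins such as MSI1 are translational repressors of stem and progenitor cells.

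The 6 input libraries were of similar size. Their summed FPKM ran from 116187 to 139921, and the relative depth estimated from the steps of low values ran from 0.996 to 1.10 of the first 18M library. Replicate 1 of the 5Y group was the least like the 18M libraries, with Pearson correlations of log2 values of 0.817 to 0.837. Replicates 2 and 3 of that group had 0.942 to 0.947 and 0.912 to 0.917 with the 18M libraries. Within the 5Y group the correlation was 0.868 between replicates 1 and 2, 0.923 between 1 and 3, and 0.935 between 2 and 3. Replicate 2 of the 5Y group was thus closer to every 18M library than to either other 5Y library. Germ cell stage markers also differed between the groups, with spermatid markers higher on average in the group that the titles place before sexual maturity. No library was regrouped by these values. The summed FPKM of elongating spermatid markers (4 of 8 had a row, all 4 above the filter) was 1195, 1154 and 1175 in the 18M libraries and 263, 849 and 731 in the 5Y libraries. Most of each sum was TNP1 alone, at 883, 852 and 879 FPKM in 18M and 201, 641 and 550 FPKM in 5Y. The summed FPKM of round spermatid markers (5 of 7) was 212, 198 and 239 in 18M and 68.9, 206 and 117 in 5Y. That of Sertoli cell markers (5 of 7) was 21.2, 21.4 and 17.7 in 18M and 45.2, 26.1 and 34.8 in 5Y. Spermatid transcripts were thus present in all 3 libraries titled 18M, and for the round spermatid markers the groups overlapped. These markers moved with several of the regulators described here, and their part in those differences was not tested. In bulk tissue, fewer cells of a type and less RNA per cell cannot be told apart.

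YBX2 and DDX25, the repressor and the helicase of the spermatid, were the most abundant of the regulators. YBX2 (ENSBGRG00000021388) had a mean FPKM of 94.0 over the 6 libraries and stood above 98.5% to 99.4% of the rows of a library. DDX25 (ENSBGRG00000019635) had a mean of 84.2 FPKM, at percentiles of 98.8 to 99.4. CPEB2 (ENSBGRG00000023568) followed with 34.6 FPKM, then the MSI1 row ENSBGRG00000026336 with 30.0 FPKM, BOLL (ENSBGRG00000000262) with 9.46 FPKM and the other MSI1 row, ENSBGRG00000026314, with 2.79 FPKM. Not all neighbours in this order were apart. YBX2 exceeded DDX25 in every 18M library, but DDX25 was the higher in replicates 1 and 2 of the 5Y group. CPEB2 exceeded ENSBGRG00000026336 in every 18M library and in 5Y replicate 2, and was the lower in 5Y replicates 1 and 3. BOLL exceeded ENSBGRG00000026314 in all 6 libraries.

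None of the 6 rows passed the test across all genes (limma, Benjamini-Hochberg adjusted p under 0.05), against a background of 0.0322% of the rows tested, which are 4 of 12437. One of the 6, ENSBGRG00000026336, had an unadjusted p under 0.05, against 25.1% of all rows. The values of the 2 groups did not overlap for 2 of the 6, against 33.7% of all rows. The log2 fold change was below 0 for 5 of the 6, against 46.5% of all rows. The shares of the regulators were thus not above the background for either count of group differences, and with 6 rows each share is coarse. Without 5Y replicate 2, 2 of the 6 passed the adjusted test, where 19.3% of all rows did, and 4 had an unadjusted p under 0.05, where 40.1% of all rows did. The unadjusted count was 2 without 18M replicate 2 (16.8% of all rows) or without 5Y replicate 1 (18.5% of all rows).

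YBX2 was lower in every 5Y library than in any 18M library. It was measured at 113, 109 and 108 FPKM in the 18M libraries and at 47.2, 96.0 and 91.0 FPKM in the 5Y libraries. The 18M values lay within a coefficient of variation of 2.07%, and the 5Y values within 34.4%, most of it from replicate 1. The means were 110.0 ± 2.28 and 78.0 ± 26.9 FPKM (SD, n = 3 each), and the log2 fold change was -0.56 (SE 0.28, limma adjusted p = 0.248). An exact two-sided permutation test gave p = 0.1, which is the smallest that 3 against 3 libraries allow. Without 5Y replicate 1 the log2 fold change was -0.24, so that most of the mean difference came from this library. After quantile normalization it was -0.30.

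DDX25 was also lowest in 5Y replicate 1, but its groups overlapped. The 18M libraries gave 96.8, 83.3 and 93.4 FPKM and the 5Y libraries 53.5, 101 and 76.5 FPKM, so that the highest and the lowest values were both from 5Y animals. The means were 91.2 ± 7.02 and 77.1 ± 24.0 FPKM (SD, n = 3 each), with a log2 fold change of -0.29 (SE 0.25, limma adjusted p = 0.469, exact permutation p = 0.4). The difference was -0.05 without 5Y replicate 1, -0.51 without 5Y replicate 2 (limma unadjusted p = 0.0488, adjusted p = 0.123) and 0.00096 after quantile normalization.

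CPEB2, the only CPEB member of the set with a row, was lower on average in the 5Y group, with overlapping values. It was measured at 43.3, 33.1 and 44.7 FPKM in 18M and at 22.6, 37.6 and 26.4 FPKM in 5Y. Replicate 2 of each group was the exception within its group, the lowest 18M value and the highest 5Y value. The means were 40.4 ± 6.37 and 28.8 ± 7.80 FPKM (SD, n = 3 each), and the log2 fold change was -0.50 (SE 0.23, limma adjusted p = 0.218, exact permutation p = 0.2). Without 5Y replicate 2 it was -0.71 with a limma adjusted p of 0.0479, a fit in which 2403 of the 12437 genes passed, and after quantile normalization it was -0.30. The 2 other rows with the symbol CPEB2 were close to 0 and were not tested. ENSBGRG00000023956 lay between 0 and 0.0746 FPKM and carries annotation terms of reverse transcription and transposition, and ENSBGRG00000023977 lay between 0 and 0.0197 FPKM. All of the signal under this symbol was therefore on the 1 identifier, whose terms include 3′ UTR binding and repression of translation.

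BOLL, the DAZ family member of the set with a row, differed little between the groups. Its values were 10.7, 9.38 and 10.2 FPKM in 18M and 6.30, 9.15 and 11.0 FPKM in 5Y, with both the lowest and the highest value in the 5Y group. The means were 10.1 ± 0.677 and 8.82 ± 2.38 FPKM (SD, n = 3 each), with a log2 fold change of -0.23 (SE 0.22, limma adjusted p = 0.510, exact permutation p = 0.6). Without 5Y replicate 1 the difference was -0.0050, so that the lower 5Y mean rested on that library, and without 5Y replicate 3 it was -0.40.

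**Figure D1:**
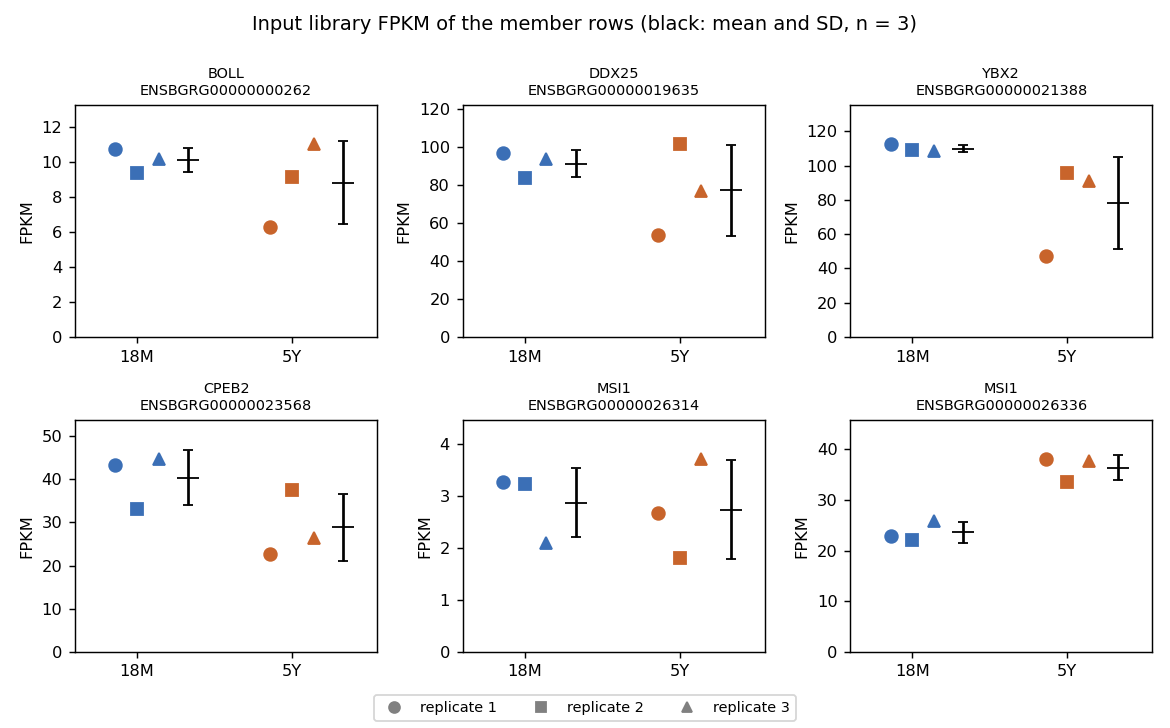
FPKM (vertical axis, from 0) of the 6 tested rows in the 18M (blue) and 5Y (orange) input libraries, 1 point per animal with the shape giving its replicate number, and black bars for the mean and SD of 3 libraries. For BOLL, DDX25, YBX2 and CPEB2 the lowest of the 6 points is 5Y replicate 1, while the 5Y points of MSI1 ENSBGRG00000026336 (33.5 to 38.1 FPKM) all lie above the 18M points (22.0 to 25.9 FPKM).

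The 2 rows with the symbol MSI1 behaved differently, and their annotation differs as well. ENSBGRG00000026314 carries the terms RNA binding, polysome and ribonucleoprotein complex, as a Musashi protein would. It was measured at 3.26, 3.23 and 2.09 FPKM in 18M and at 2.66, 1.81 and 3.71 FPKM in 5Y. The groups overlapped throughout, with means of 2.86 ± 0.665 and 2.73 ± 0.949 FPKM (SD, n = 3 each) and a log2 fold change of -0.10 (SE 0.30, limma adjusted p = 0.849, exact permutation p = 0.7). Its sign turned, to at most 0.16, when 18M replicate 1, 18M replicate 2 or 5Y replicate 2 was left out, so no direction was found for this row.

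ENSBGRG00000026336 was higher in every 5Y library. Its values were 22.9, 22.0 and 25.9 FPKM in 18M and 38.1, 33.5 and 37.6 FPKM in 5Y. The means were 23.6 ± 2.05 and 36.4 ± 2.53 FPKM (SD, n = 3 each), a 1.54-fold higher mean and a log2 fold change of 0.62 (SE 0.14, limma unadjusted p = 0.00309, adjusted p = 0.154). The exact permutation test gave p = 0.1, its smallest possible value. In contrast to the other rows, its spread was small in both groups, with coefficients of variation of 8.69% and 6.95%, and the log2 fold change lay between 0.57 and 0.82 under all 14 alternatives. The annotation terms of this row are those of cytochrome c oxidase, the last complex of the mitochondrial respiratory chain, with none for RNA binding, so whether it measures the Musashi gene is uncertain. Without 5Y replicate 2 its adjusted p was 0.0313. Summing both rows under the symbol gave a log2 fold change of 0.56, which is mostly that of this more abundant row.

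**Figure D2:**
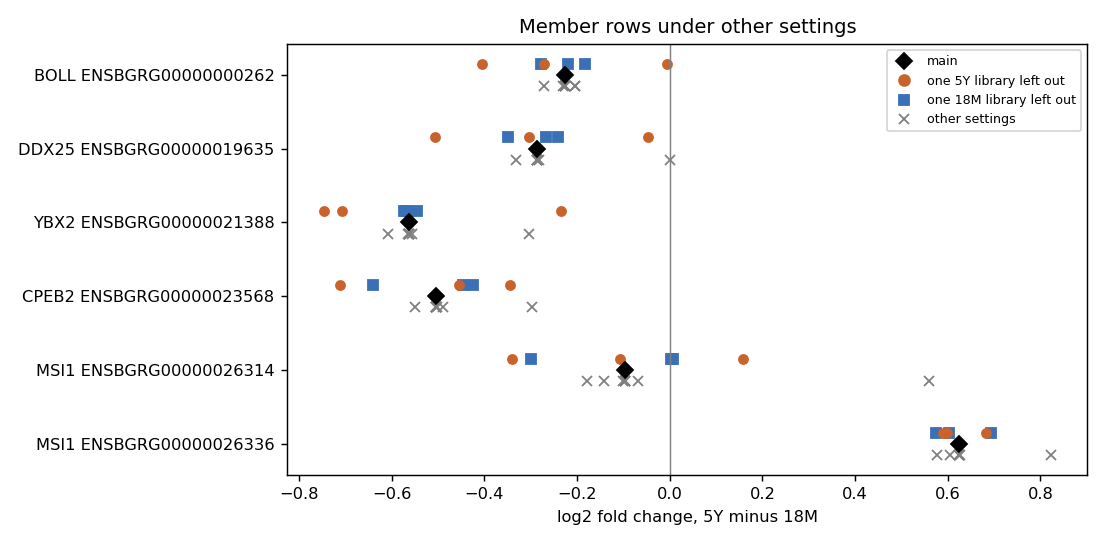
Log2 fold change (5Y minus 18M, horizontal axis) of each tested row as reported (black diamonds), with 1 library of either group left out (orange circles for 5Y, blue squares for 18M) and under the other settings (grey crosses). The rightmost orange circle of BOLL, DDX25 and YBX2, at -0.0050, -0.05 and -0.24, is the value without 5Y replicate 1, and the cross at 0.56 for MSI1 ENSBGRG00000026314 is the sum of both MSI1 rows.

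Across libraries, the 4 rows of BOLL, DDX25, YBX2 and CPEB2 were all lowest in 5Y replicate 1, but went different ways in the other 5Y libraries. On the log2 scale and relative to the 18M mean, 5Y replicate 1 lay at -0.67 for BOLL, -0.76 for DDX25, -1.22 for YBX2 and -0.82 for CPEB2. In 5Y replicate 2 the same values were -0.14, 0.16, -0.20 and -0.09, and in 5Y replicate 3 they were 0.13, -0.25, -0.27 and -0.60. The median of the round spermatid markers lay at -1.90, 0.0011 and -1.48 in these 3 libraries, that of the elongating spermatid markers at -2.20, -0.48 and -0.72, and that of the spermatocyte markers at -0.10, 0.08 and 0.05. The library with the lowest level of the 4 regulators was thus also the one with the lowest level of spermatid markers, but the regulators were less far below the 18M mean than either spermatid list. Sertoli cell markers were highest in the same library, with medians of 1.27, 0.35 and 0.84. The MSI1 row ENSBGRG00000026336 took similar values in all 3 (0.69, 0.51 and 0.67).

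**Figure D3:**
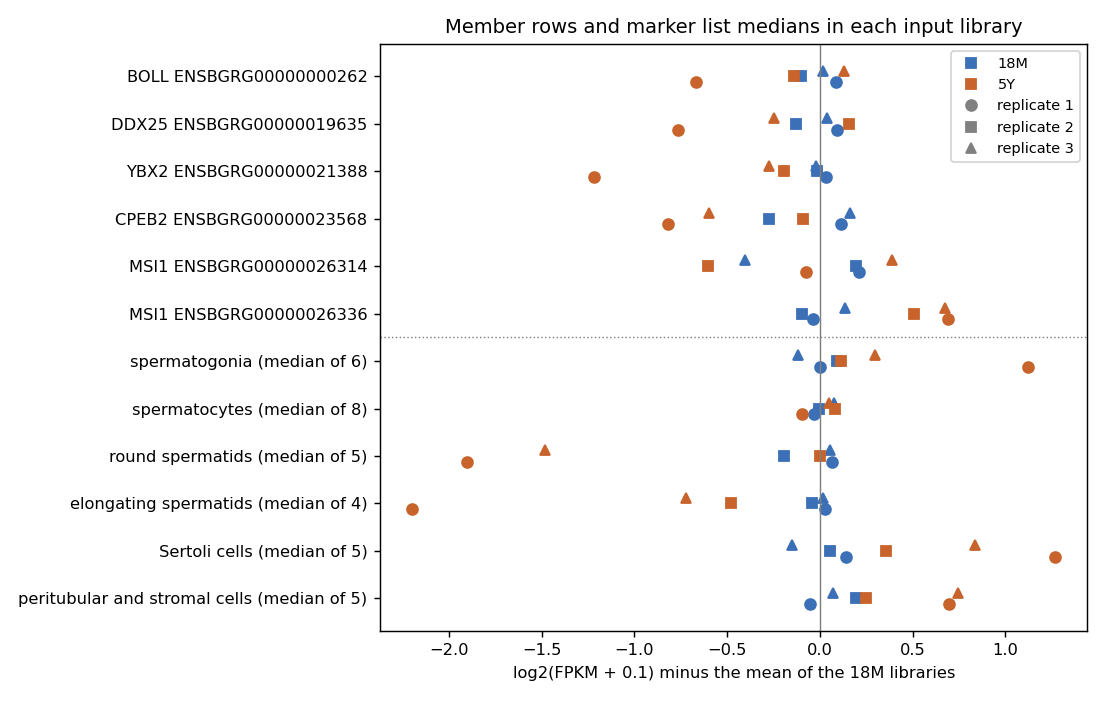
Log2(FPKM + 0.1) minus the mean of the 18M libraries (horizontal axis) in each library for the 6 tested rows, above the dotted line, and for the median gene of 6 marker lists, below it, with colour for the group and shape for the replicate number. The circle of 5Y replicate 1 is the leftmost point for BOLL (-0.67), DDX25 (-0.76), YBX2 (-1.22) and CPEB2 (-0.82), as for round (-1.90) and elongating (-2.20) spermatid markers, and lies to the right for spermatogonia (1.12) and Sertoli cells (1.27).

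As a description over 6 libraries, which share these differences in makeup, the Pearson correlation of log2 values was 0.91 between DDX25 and YBX2, 0.90 between BOLL and YBX2, 0.90 between CPEB2 and DDX25 and 0.62 between BOLL and CPEB2. The MSI1 row ENSBGRG00000026336 was negatively correlated with all of them, from -0.72 with CPEB2 to -0.44 with BOLL, and the 2 MSI1 rows had a correlation of -0.13. By the same measure, the genes most like each row were ABHD1 and HGH1 for BOLL, SIRT4 and INPP5E for DDX25, DPP9 and FAM166A for YBX2, TAC1 and ARG2 for CPEB2, HSD17B14 and STX10 for ENSBGRG00000026314, and TMCC2 and PHKA1 for ENSBGRG00000026336, with correlations of 0.991 to 0.999. These were the highest of 12437 genes over only 6 libraries and are given without a test.

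Ratios within a library set each regulator beside a relative, and were chosen after the values were seen. In exact permutation tests of the 6 ratios, the lowest p was 0.1 and the lowest Benjamini-Hochberg adjusted p was 0.2. YBX2 to YBX3, a more widely expressed Y-box protein, was 0.529, 0.453 and 0.517 in 18M and 0.335, 0.370 and 0.501 in 5Y, so the ratio was lower in 5Y on average with overlapping values. CPEB2 to CPEB3 was 5.39, 4.84 and 5.17 in 18M and 11.9, 6.38 and 6.11 in 5Y. CPEB2 was thus the more abundant of the pair in every library, and more so in all 5Y libraries. CPEB2 to CPEB4 lay the other way, at 4.95, 3.90 and 5.89 in 18M and 2.13, 4.12 and 2.43 in 5Y, with overlapping values. CPEB3 and CPEB4 each stand on 4 identifiers, of which that of highest mean FPKM was used. The RNA-binding MSI1 row to MSI2, its paralog, was 1.32, 1.28 and 1.12 in 18M and 0.472, 0.576 and 0.797 in 5Y. This MSI1 row was thus above MSI2 in every 18M library and below it in every 5Y library. The other MSI1 row, ENSBGRG00000026336, was not used in the ratio and lay above MSI2 in every library, at 22.0 to 38.1 FPKM. DDX25 to YBX2 was 0.860, 0.765 and 0.861 in 18M and 1.13, 1.06 and 0.841 in 5Y. YBX2 to PABPC1, the poly(A)-binding protein, had a mean of 0.327 ± 0.00882 in 18M and 0.266 ± 0.0545 in 5Y (SD, n = 3 each), and was lower in every 5Y library.

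Other genes of mRNA storage, polyadenylation and germ cell translation were taken from a list of 39, of which 34 had a row and 33 were tested. None passed the adjusted test in limma. At an unadjusted p under 0.05, 7 were higher in 5Y and 1 was lower, against 14.2% and 10.9% of all rows, and the median log2 fold change of the list was 0.10, against 0.04 for all rows. After median-of-ratios scaling 7 were higher and 2 lower, against 11.8% and 13.5% of all rows, with medians of 0.05 for the list and -0.0016 for all rows. The groups did not overlap for 10 genes higher and 4 genes lower in 5Y, of 33. Over all 12437 rows they did not overlap for 2465 higher and 1731 lower, 33.7% together. The 4 lower ones were DZIP1, CPEB3, PABPC1 and EIF4G3. For 13 of the 39 symbols the identifier of highest mean FPKM was taken from several. Among the 20 tested symbols on a single identifier, 2 had an unadjusted p under 0.05.

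Of the 8 genes with an unadjusted p under 0.05, 4 were among the 9 tested genes of the DAZ and Pumilio partners. All 4 were higher in 5Y, a direction called for 14.2% of all rows. PUM2, DAZAP1 and DZIP3 stand on several identifiers, of which that of highest mean FPKM is given. DAZAP1, a DAZ-associated RNA-binding protein, had 50.8, 42.1 and 41.2 FPKM in 18M and 77.4, 67.5 and 61.7 FPKM in 5Y (log2 fold change 0.62, SE 0.17, limma adjusted p = 0.154). PUM2, a 3′ UTR repressor that binds DAZ proteins, had 8.76, 7.68 and 7.91 FPKM in 18M and 12.4, 9.41 and 12.4 FPKM in 5Y (0.47, SE 0.16, adjusted p = 0.164). NANOS1, a Pumilio partner, was low in all libraries, at 0.758, 1.79 and 0.686 FPKM in 18M and 3.57, 2.87 and 2.22 FPKM in 5Y (1.43, SE 0.37, adjusted p = 0.154; 0.93 with a pseudocount of 1). For these 3 genes every 5Y value exceeded every 18M value, and the same held for DZIP3, a DAZ-interacting zinc finger protein. The DZIP3 means were 1.94 ± 0.314 and 2.79 ± 0.320 FPKM (SD, n = 3 each), with a log2 fold change of 0.51 (SE 0.19, adjusted p = 0.172). Being picked by p in the same libraries, these 4 genes gain no separate support from this, and 2465 of all 12437 rows did the same. DZIP1, another of the 9, was lower in every 5Y library (-0.65, SE 0.29, limma adjusted p = 0.209). NANOS3, another member of the Nanos family, differed by -0.14 (SE 0.23).

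Among the CPEB and poly(A) tail factors, 1 of 9 tested genes had an unadjusted p under 0.05, against 25.1% of all rows. CPEB3, a relative of CPEB2, was measured at 8.03, 6.83 and 8.65 FPKM in 18M and at 1.90, 5.89 and 4.31 FPKM in 5Y, a log2 fold change of -1.07 (SE 0.38, limma adjusted p = 0.168) that was -0.62 without 5Y replicate 1. CPEB4, the remaining relative with a row, was slightly higher in every 5Y library (8.27 ± 0.608 against 10.2 ± 0.931 FPKM, SD, n = 3 each), with a log2 fold change of 0.30 (SE 0.14, limma adjusted p = 0.233). For CPEB3 and CPEB4, which stand on several identifiers, that of highest mean FPKM is given. CPEB2, CPEB3 and CPEB4 form a branch of the family that is distinct from CPEB1. PABPC1, the cytoplasmic poly(A)-binding protein and the most abundant gene of the list, had 337 ± 10.5 FPKM in 18M and 287 ± 47.8 FPKM in 5Y (-0.24, SE 0.20, adjusted p = 0.450; -0.10 without 5Y replicate 1), and PAIP2, a protein that displaces it from the tail, had 84.4 ± 6.91 and 77.3 ± 9.11 FPKM (-0.13, SE 0.17, adjusted p = 0.620). For PAIP2 the difference was -0.03 without 5Y replicate 1 and -0.07 without 18M replicate 1, and its sign turned to 0.14 after quantile normalization.

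Among the Y-box and masking factors, YBX3 was more abundant than YBX2, at 213, 240.4 and 210 FPKM in 18M and 141, 259 and 181 FPKM in 5Y, with overlapping groups (-0.23, SE 0.25, limma adjusted p = 0.563). Its difference was -0.02 without 5Y replicate 1, -0.46 without 5Y replicate 2 and -0.07 after quantile normalization. PATL2, an oocyte repressor of translation, was the gene of this group with an unadjusted p under 0.05, at 20.9, 23.3 and 26.2 FPKM in 18M and 57.4, 36.2 and 45.8 FPKM in 5Y (0.96, SE 0.20, adjusted p = 0.154). DDX6, a helicase of repressed mRNA particles, differed by 0.24 (SE 0.16, adjusted p = 0.375), by 0.15 without 5Y replicate 1 and by 0.45 after quantile normalization. Outside these groups, MSI2 had 2.48, 2.52 and 1.87 FPKM in 18M and 5.64, 3.14 and 4.65 FPKM in 5Y (0.91, SE 0.25, limma adjusted p = 0.154). XPO1, the nuclear export receptor that DDX25 uses, had 21.9, 20.3 and 20.1 FPKM in 18M and 36.3, 26.1 and 30.1 FPKM in 5Y (0.55, SE 0.16, adjusted p = 0.154). PATL2 and XPO1 stand on several identifiers, of which that of highest mean FPKM is given. For PATL2, MSI2 and XPO1 the groups did not overlap, with higher values in 5Y, as for 2465 of all 12437 rows. These genes were picked by their p in the same libraries, so this gives them no separate support. Without 5Y replicate 2, 5 genes of the list passed the adjusted test, PUM2, CPEB3, PATL2, MSI2 and XPO1, and 13 had an unadjusted p under 0.05, in a fit where 19.3% and 40.1% of all rows did.

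Of 15 mRNAs that textbook accounts name as targets of these regulators, 6 had a row and were tested. PRM1 and PRM2, the protamines whose mRNA storage is the standard example, were among those without a row and were not analysed here. None of the 6 passed the adjusted test, and 3 were lower in 5Y at an unadjusted p under 0.05, against 10.9% of all rows. That count was 0 when any of the 18M libraries was left out, and 1 without 5Y replicate 3. The share of all rows lower in 5Y also fell, to 4.88%, 7.22% and 5.05% without 18M replicates 1, 2 and 3. It was 7.53% without 5Y replicate 3. TNP1, the transition protein mRNA that YBX2 stores, was measured at 883, 852 and 879 FPKM in 18M and at 201, 641 and 550 FPKM in 5Y (log2 fold change -1.07, SE 0.44, limma adjusted p = 0.188). PGK2, the glycolytic enzyme of spermatids, had 188, 182 and 196 FPKM in 18M and 82.7, 160.0 and 137 FPKM in 5Y (-0.63, SE 0.26, adjusted p = 0.195). TEX14, the intercellular bridge protein, had 32.4, 24.2 and 24.0 FPKM in 18M and 7.19, 14.0 and 21.6 FPKM in 5Y (-1.03, SE 0.38, adjusted p = 0.170). All 3 had their lowest value in 5Y replicate 1, as YBX2 did, and without it their log2 fold changes were -0.55, -0.35 and -0.61. After quantile normalization that of PGK2 was -0.40. TNP1 and TEX14 stand on several identifiers, of which that of highest mean FPKM is given. SYCP1 and SYCP3, the synaptonemal complex mRNAs bound by DAZL, differed by 0.04 (SE 0.13) and 0.32 (SE 0.19) with overlapping groups. TNP1 is also an elongating spermatid marker and SYCP1 and SYCP3 are spermatocyte markers, so these mRNAs and the marker lists are not independent.

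**Figure D4:**
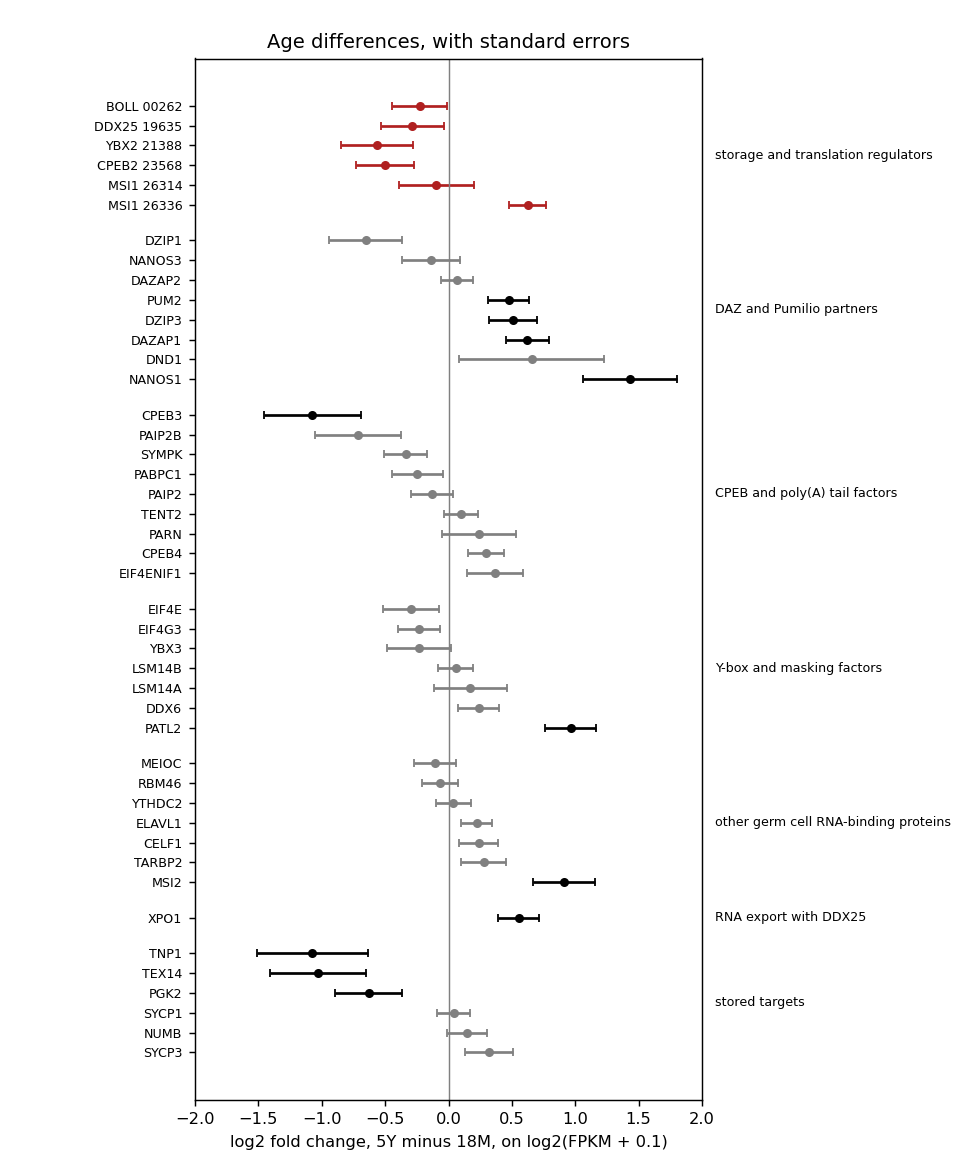
Log2 fold change with its standard error (horizontal axis, 5Y minus 18M) of the 6 tested rows (red, with the last digits of the identifier) and of the tested genes of both lists that are reported, black where the unadjusted p was under 0.05 and grey otherwise. Red points other than MSI1 ENSBGRG00000026336 (0.62) lie left of 0, black points lie on the right for 7 genes from PUM2 (0.47) to NANOS1 (1.43), and on the left for CPEB3 (-1.07), TNP1 (-1.07), TEX14 (-1.03) and PGK2 (-0.63).

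The annotation terms that at least 2 of the tested rows shared placed them among larger gene groups. RNA binding (CPEB2, DDX25 and the MSI1 row ENSBGRG00000026314) held 611 tested genes, of which 108 were higher and 20 lower in 5Y at an unadjusted p under 0.05, with a median log2 fold change of 0.16. Over all rows, 14.2% were higher and 10.9% lower. Ribonucleoprotein complex (MSI1 and YBX2) held 105 genes, 27 higher and 3 lower, with a median of 0.23. Spermatid development (DDX25 and YBX2) held 33 genes, 2 higher and 9 lower, with a median of -0.32. mRNA 3′ UTR binding (CPEB2 and YBX2) held 47 genes, 7 higher and 2 lower, with a median of 0.15, and polysome (MSI1 and YBX2) held 35 genes, 6 higher and 3 lower, with a median of -0.01. The broad terms cytoplasm (3183 genes) and nucleus (3746 genes) had medians of 0.06 and 0.08. The rows of the regulators are themselves among the genes of these terms.

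**Figure D5:**
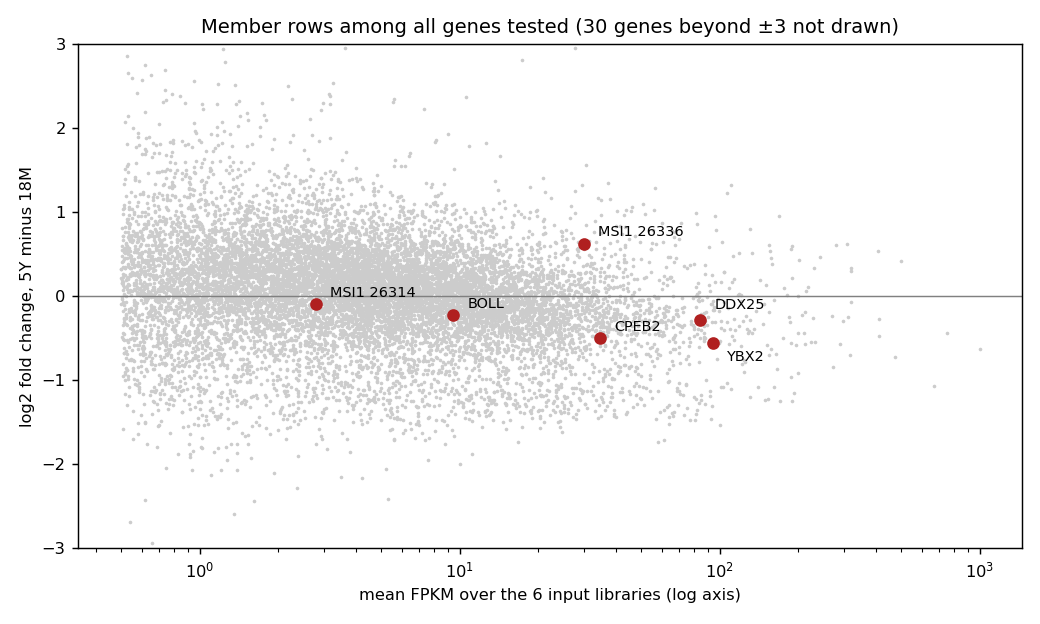
Mean FPKM over the 6 input libraries (horizontal log axis) against the log2 fold change (5Y minus 18M, vertical axis) for all 12437 rows tested (grey) and the 6 rows of the regulators (red, MSI1 with the last digits of the identifier). YBX2 (94.0 FPKM, -0.56), DDX25 (84.2 FPKM, -0.29) and CPEB2 (34.6 FPKM, -0.50) sit below 0 among abundant genes, and MSI1 ENSBGRG00000026336 (30.0 FPKM, 0.62) above it; 30 genes beyond the axis limit of 3 are not drawn.

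The table of m6A peaks that differed between the ages held 1438 peaks on 1207 genes. None of the 8 rows of the regulators carried one, by symbol or by identifier, against 9.29% of all rows tested. The table gives no value per library, so a peak present at both ages in these genes would not appear in it. In the lists around them, DDX6 (ENSBGRG00000020405, plus strand) carried 1 peak of 147 bp in its 3′ UTR, at chromosome 13 from 58147687 to 58147833 (LU_Bosgru_v3.0). The peak ends at the annotated end of the gene. NUMB, the Musashi target, carried 2 peaks on ENSBGRG00000016829 (chromosome 11, minus strand). They were annotated to exon 2 of 4, from 75368264 to 75368682 (419 bp), and to exon 4 of 4, from 75369085 to 75369914 (830 bp). On this strand the higher coordinates lie nearer the 5′ end, so the exon numbers and the strand conflict. The place of these peaks within the transcript is therefore uncertain. That identifier had a mean of 1.51 FPKM and a log2 fold change of -0.87 (limma unadjusted p = 0.0120, adjusted p = 0.154). The other NUMB row, ENSBGRG00000016469, was the more abundant and had no differential peak, with 3.76 ± 0.441 FPKM in 18M and 4.16 ± 0.370 FPKM in 5Y (SD, n = 3 each; 0.14, SE 0.16, adjusted p = 0.563; 0.08 to 0.23 with 1 library left out). The 2 NUMB rows thus had log2 fold changes of opposite sign.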

How the data were processed

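FPKM values per gene and input library were computed and deposited by the authors. Per the study's methods, reads were trimmed with Trimmomatic, cleared of rRNA with SortMeRNA and aligned to LU_Bosgru_v3.0 with HISAT2 (version 2.0.4 in the submitters' processing notes), and uniquely mapped reads were kept. The program for FPKM is not given in the sources used here. Fragment counts were not used, so no interval or limit for counting error was computed. The authors compared m6A peaks between the ages with MeTDiff (fold change of at least 1.5) and annotated them with ChIPseeker. How replicates entered is not given in the sources used here. Peak lists of single groups were not used.

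The 6 input libraries, grouped by title, were fitted, after log2(FPKM + 0.1) transformation, in R 4.3.3 using limma 3.58.1, with lmFit followed by trended eBayes, over the rows with a mean FPKM of at least 0.5. This scale understates the change of low genes. Tests were two-sided and p-values were adjusted by the Benjamini-Hochberg method over all 12437 rows. Exact permutation tests used scipy 1.17.1. Because the samples are separate animals, the spread is that between animals. On simulated data, 75% of 200 genes given a log2 change of 2 were recovered, with a false share of 4.459%. Of 200 given a log2 change of 1, 18% were recovered. The simulated noise was independent between genes, with the same spread in both groups. Shifts shared by the genes of a library and a wider spread in the 5Y group were not simulated, so these shares need not hold here.

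The genes and lists were chosen with earlier results of these data known. Named were all rows of the regulators, list genes with a differential peak or an unadjusted p under 0.05, the 3 genes of highest mean FPKM in each list, and the 2 genes most correlated with each row. NANOS3, CPEB4, DZIP1, EIF4G3, SYCP1 and SYCP3 fall outside this rule and were named after their values were seen. One gene of the lists is counted but not reported here. For a symbol of the lists on several identifiers, that of highest mean FPKM was used. The alternatives were other pseudocounts, filters and scalings, no trend, a replicate block, summed identifiers and each library left out, and, chosen after seeing the data, symbols on 1 identifier only. Same-numbered animals of the 2 groups are different animals, and the numbers were not taken as pairs.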

Additional observations from a re-analysis of the deposited data

How the results depend on the processing

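The counts of genes with a limma adjusted p under 0.05 were small and depended on single libraries. The 4 genes among all rows became 8 with all rows above 0, 9 without a trend, 2 with a mean FPKM of at least 1, 2 with a pseudocount of 0.01 and 1 with the replicate block, and ranged from 0 (without 18M replicate 3) to 2403 (without 5Y replicate 2) with 1 library left out. In the same leave-one-out fits the count ranged from 0 to 2 for the 6 rows of the regulators and from 0 to 5 for the list of storage genes, with the highest value in each case without 5Y replicate 2. At an unadjusted p under 0.05, the leave-one-out counts ranged from 1662 to 4992 for all rows (3123 as reported), from 1 to 4 for the regulators (1), from 6 to 13 for the storage list (8) and from 0 to 3 for the targets (3). The count for the regulators was 2 after median-of-ratios scaling. That for the storage list was 2 with symbols on 1 identifier only, where 20 genes were tested. That for the targets was 1 with all rows above 0, 1 after quantile normalization, 1 with the replicate block and 1 of 3 with symbols on 1 identifier only. The cause was not tested, other than the fewer genes of the last filter. The log2 fold change turned sign for DDX25 (0.00096) and PAIP2 (0.14) after quantile normalization, and for ENSBGRG00000026314 with both MSI1 rows summed (0.56) and in leave-one-out fits (-0.34 to 0.16, positive at 0.0078, 0.0016 and 0.16). With 1 library left out, the median log2 fold change of endothelial markers ranged from 0.038 to 0.23 (0.12 as reported). That of round spermatid markers ranged from -1.83 to -0.71 (-1.21 as reported), and that of elongating spermatid markers from -1.45 to -0.63 (-1.16 as reported). The medians of spermatocyte (-0.08 to 0.04) and macrophage markers (-0.45 to 0.62) turned sign. The deviations of same-numbered libraries had correlations of -0.02, -0.09 and 0.0067, so the replicate block was not used as the reported fit, and it changed no call for the regulators. The depth behind a value is unknown beyond the estimated relative depth, and 3 animals per group limit every comparison.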
